A study of Arabidopsis thaliana with 27 samples.

Results

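WRKY transcription factors are plant DNA-binding proteins, and 43 members of the family were followed here through every library of a leaf and root expression study of Arabidopsis thaliana. The members were taken by gene identifier from the count files, which list 33602 genes each. No filter on expression was applied to them, but they were chosen with earlier results of these data known. Counts and shares below refer to these 43 members and not to every WRKY gene of the species. They fall into the usual family groups: 9 members of group I, which carry a pair of WRKY domains, 3 of IIa, 4 of IIb, 8 of IIc, 7 of IId, 4 of IIe and 8 of group III. All 43 had counts in each root library, and between 37 and 43 had at least 1 count in a given library of the series.

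The study sequenced messenger RNA from 27 libraries in 9 conditions, with 3 libraries in each. Palisade cells, the elongated photosynthetic cells under the upper leaf surface, were sorted as protoplasts that held chlorophyll and fluoresced from IQD22pro:GUS-mCit, a transgene in which the promoter of IQD22 drives a fusion of β-glucuronidase and mCitrine. Reference cells came from the same leaves and held chlorophyll without mCitrine, so they are a mixture that can include spongy mesophyll, bundle sheath and other green cells around the veins. Palisade and reference cells were collected from leaves given 2 h of high light (300 µmol m-2 s-1) with transcription inhibitors present during protoplasting, from leaves kept in low light (50 µmol m-2 s-1) with the inhibitors, and from leaves in low light without inhibitors. The inhibitors were actinomycin D and cordycepin, which stop the making of new RNA.

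A further reporter line, the GAL4-VP16 enhancer trap JR11-2, whose GFP is strongest in the lower spongy mesophyll, was sorted without inhibitors at low light. Its GFP-negative green cells carry the label palisade and its GFP-positive green cells the label reference, so the GFP-negative population holds every green cell outside the trap's domain and not palisade cells alone. Total root protoplasts of Col-0, also at 17 d and in low light without inhibitors, formed the last condition. Leaf samples were first true leaves at 17 d, and each library is a pool of protoplasts from many leaves. Palisade and reference libraries with the same pool letter came from 1 batch of leaf protoplasts, and root libraries carry no pool letter. Where libraries were compared within pools, p-values measure how the difference within a pool varies from pool to pool. In the other comparisons they measure the spread between the libraries of a condition.

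WRKY proteins recognise the W box, a short DNA motif with the core TTGAC, through a WRKY domain with a zinc finger. The family is best known from defence: pathogen-derived molecules are sensed by receptors such as FLS2, a cascade of MAP kinases including MPK3 and MPK6 is activated, and WRKY factors are phosphorylated or induced within minutes to hours. Many WRKY promoters hold W boxes themselves, so members regulate each other. Others act in senescence, phosphate supply, heat and drought responses, or in the shaping of hairs and seed coats, and several are induced by wounding. In bulk RNA of sorted cells, fewer cells that express a gene and less RNA of it per cell cannot be told apart.

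The upstream sequences of 4 members are shown as chosen examples of the contrasting responses described below. WRKY33 (AT2G38470), WRKY53 (AT4G23810) and WRKY30 (AT5G24110) were lower with inhibitors, whereas WRKY54 (AT2G40750) was not, and WRKY54 fell in high light. Each run is the 300 bases before the annotated gene start in the RefSeq annotation of TAIR10.1, written 5′ to 3′ on the gene's strand. Capitals mark TTGACC or TTGACT, read on either strand, so that GGTCAA and AGTCAA are the same motifs in reverse. Of 22 members lower with inhibitors in palisade and reference cells, 6 held at least 2 matches, among them WRKY33, WRKY53 and WRKY30. WRKY48, WRKY18 and WRKY6, which fell farthest in palisade cells, held 1, 0 and 0. The first sequence is from WRKY33, chr2:16107935-16108234 on the plus strand, and holds 3 matches.
WRKY33: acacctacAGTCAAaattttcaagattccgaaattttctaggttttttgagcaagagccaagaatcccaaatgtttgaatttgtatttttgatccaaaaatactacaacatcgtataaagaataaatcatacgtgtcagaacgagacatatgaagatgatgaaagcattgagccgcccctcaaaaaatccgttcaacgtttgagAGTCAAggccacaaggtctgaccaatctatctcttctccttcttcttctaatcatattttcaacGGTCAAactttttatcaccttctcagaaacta
WRKY53, at chr4:12393983-12394282 on the minus strand, has 2 matches.
WRKY53: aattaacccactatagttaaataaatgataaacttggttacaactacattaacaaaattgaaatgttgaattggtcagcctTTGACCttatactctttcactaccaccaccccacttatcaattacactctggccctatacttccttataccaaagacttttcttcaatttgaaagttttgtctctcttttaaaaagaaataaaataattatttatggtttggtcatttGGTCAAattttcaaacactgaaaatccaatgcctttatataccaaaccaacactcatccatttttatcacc
WRKY30, at chr5:8154711-8155010 on the minus strand, has 3 matches.
WRKY30: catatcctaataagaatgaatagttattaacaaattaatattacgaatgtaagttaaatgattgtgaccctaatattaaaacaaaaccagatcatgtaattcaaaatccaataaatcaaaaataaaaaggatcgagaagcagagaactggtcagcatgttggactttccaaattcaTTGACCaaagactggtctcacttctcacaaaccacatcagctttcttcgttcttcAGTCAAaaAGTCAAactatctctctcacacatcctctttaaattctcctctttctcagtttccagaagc
WRKY54, at chr2:17002529-17002828 on the minus strand, has none.
WRKY54: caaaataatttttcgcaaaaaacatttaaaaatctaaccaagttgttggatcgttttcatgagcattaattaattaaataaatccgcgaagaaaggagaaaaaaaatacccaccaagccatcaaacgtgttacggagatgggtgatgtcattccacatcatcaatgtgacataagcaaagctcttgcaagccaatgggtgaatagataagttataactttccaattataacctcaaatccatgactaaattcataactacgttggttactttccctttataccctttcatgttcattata

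Among the members followed here, 18 of 43 such windows (41.9%) held TTGACC or TTGACT on either strand, against 8855 of 27443 windows of all nuclear protein-coding genes (32.3%). At least 2 matches, which may overlap, were found in 8 members (18.6%), against 7.91% of all windows. The shorter core TTGAC, which every 6-letter match contains, was in 28 members (65.1%) and in 50.4% of all windows. These are matches of letters and say nothing of binding.

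The libraries held between 15074702 and 38792923 counts on genes, and the root libraries were the deepest. A count of 0 in a library allows a level of up to 0.0773 to 0.199 CPM, taken as 3 counts of its total, which covers counting error only. CPM values are counts rescaled to a common library total, here after TMM normalization over all 27 libraries. The sorting was checked on marker genes: IQD22 had 44.7 to 52.5 CPM in palisade cells with inhibitors at low light, against 10.5 to 12.2 CPM in reference cells, and 86.9 to 134 CPM in palisade cells without inhibitors, against 44.7 to 62.9 CPM in reference cells. The 3 abaxial or spongy markers CORI3, YAB5 and YAB1 summed to 7.39 to 18.3 CPM in palisade cells with inhibitors at low light, against 632 to 708 CPM in reference cells. In JR11-2 the same sum was 101 to 122 CPM in GFP-negative cells, against 232 to 297 CPM in GFP-positive cells, a much smaller separation. All 3 mesophyll markers were abundant in every leaf group, and in root the same markers summed to 1.67 to 2.52 CPM.

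Summed over the 43 members, WRKY messenger RNA was the most abundant wherever leaf protoplasts had been made without inhibitors. The sum was 1270 ± 110 CPM in palisade cells with inhibitors at high light, 914 ± 86.5 CPM with inhibitors at low light and 9490 ± 979 CPM without inhibitors (SD, n = 3 each). In reference cells it was 1290 ± 93.2 CPM with inhibitors at high light, 659 ± 37.0 CPM with inhibitors at low light and 10000 ± 267 CPM without inhibitors. JR11-2 cells, which also had no inhibitors, reached 9960 ± 892 CPM in the GFP-negative and 10200 ± 824 CPM in the GFP-positive population, and root protoplasts, without inhibitors too, had 1210 ± 197 CPM. The sum in root was thus near that of leaf cells with inhibitors and far below that of leaf cells without.

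Per kilobase of exon, WRKY33 had the highest mean level of all members in each of the 9 conditions. In leaf cells without inhibitors WRKY40 and WRKY11 came next, with 789 ± 79.2 and 638 ± 92.0 CPM per kb in palisade cells against 1090 ± 66.6 for WRKY33. With inhibitors WRKY15 (AT2G23320) took the second place in both populations and both lights, at 70.0 ± 8.67 CPM per kb in low-light palisade cells, where WRKY33 had 100 ± 9.21. WRKY11, WRKY40 and WRKY22, next in that order at 46.9 ± 5.23, 44.5 ± 6.34 and 42.6 ± 7.89 CPM per kb, lay within their spread. In root the order was WRKY33, WRKY18, WRKY40, WRKY6, WRKY15 and WRKY65. There WRKY33 overlapped WRKY18 in its spread but not WRKY40, and WRKY18, WRKY40 and WRKY6 overlapped each other. WRKY33 and WRKY40 together made up between 23.8% (root) and 39.1% (reference cells without inhibitors) of the members' summed CPM, as means of each condition.

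WRKY1 (AT2G04880), one of the first WRKY proteins described, had 16.5 to 21.4 CPM in root, against 16.0 to 24.7 CPM over all leaf libraries. WRKY1, WRKY3, WRKY4, WRKY20 and WRKY21 passed the limits on FDR and fold in none of the comparisons below, and all but WRKY21 belong to group I. Their levels still varied: WRKY3 had a mean of 16.4 CPM per kb in high-light palisade cells and 5.53 in reference cells without inhibitors. At the other end, WRKY74 had no count in most leaf libraries, and WRKY31, WRKY38, WRKY50 and WRKY65 stayed under 1 CPM in each leaf library.

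**Figure D1:**
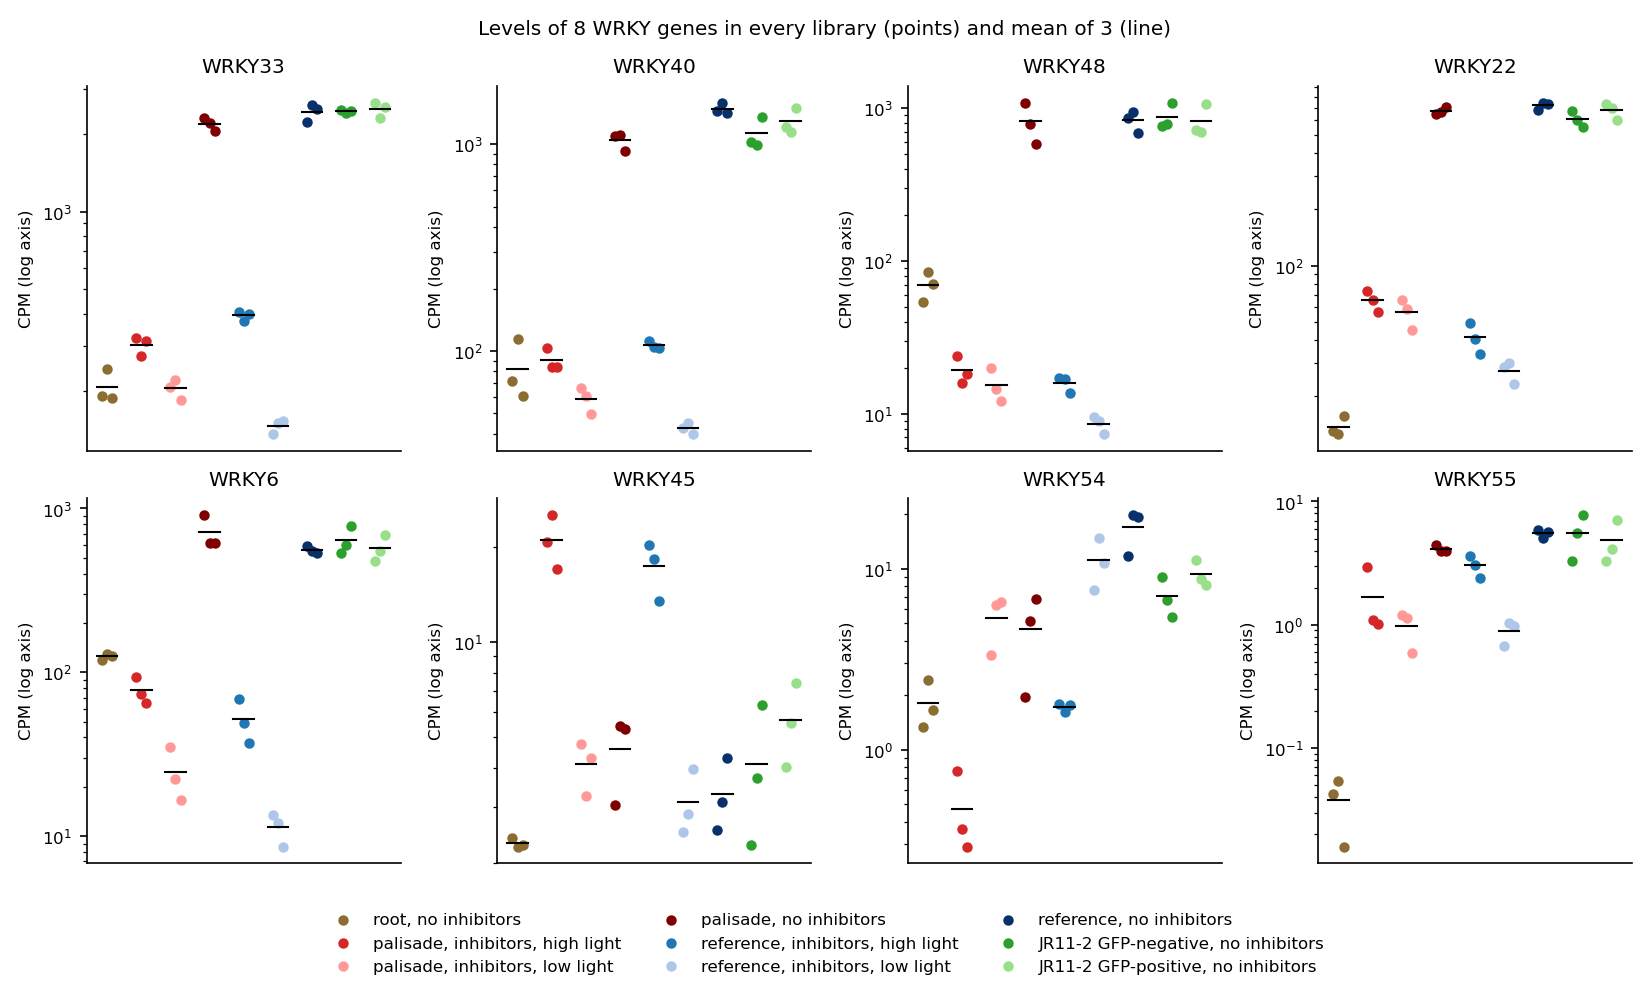
Levels of 8 WRKY members in CPM (logarithmic axis) in the 9 conditions; points are the 3 libraries of a condition and the line is their mean. WRKY33, WRKY40, WRKY48, WRKY22 and WRKY6 stand far higher in leaf cells without inhibitors than in leaf cells with them; WRKY45 is highest in high light, and WRKY54 is lowest in high-light palisade cells.

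The comparison with and without transcription inhibitors asks how levels differ when no new RNA is made while leaf tissue is digested to protoplasts. Intact leaf was not among the libraries. Induction without inhibitors and loss of existing RNA with them therefore cannot be told apart. Most members tested were far lower when the inhibitors were present. In palisade cells 22 of 40 members tested fell and none rose at a false discovery rate (FDR) under 0.05 and a fold-difference above 2, and the median log2 fold change of the members was -2.10, against -0.03 over all genes tested. Over all genes, 19.1% fell and 0.868% rose by the same limits. In reference cells 25 of 40 members fell and none rose, the median was -2.51 against 0.04 for all genes, and the background was 20.9% fallen and 1.16% risen. All 22 members that fell in palisade cells were among the 25 of reference cells, which added WRKY31, WRKY51 and WRKY7. WRKY38, WRKY42 and WRKY74 had too few counts to be tested in either population.

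The group IIc factor WRKY48 (AT5G49520), described as a repressor of basal defence, had the largest fall in palisade cells. It had 19.8, 14.5 and 12.1 CPM in palisade cells with inhibitors, against 1080, 789 and 588 CPM without, a log2 fold change of -5.80 ± 0.30 (SE; adjusted p = 2.48e-07). In reference cells its levels were 9.52, 8.90 and 7.32 CPM with inhibitors and 869, 946 and 689 CPM without (-6.58 ± 0.20; adjusted p = 3.56e-09). Every library with inhibitors lay far below every library without them, in both populations.

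WRKY18 (AT4G31800) and WRKY40 (AT1G80840) belong to group IIa, whose members pair with each other and dampen defence and abscisic acid responses. WRKY18 had 29.8, 28.5 and 24.9 CPM in palisade cells with inhibitors, against 1050, 905 and 840 CPM without (log2 fold change -5.13 ± 0.19; adjusted p = 1.74e-07), and in reference cells 16.5, 18.6 and 14.1 CPM, against 1020, 930 and 984 CPM (-5.87 ± 0.17; adjusted p = 3.56e-09). WRKY40 had 66.3, 60.8 and 49.8 CPM in palisade cells with inhibitors, against 1100, 1110 and 925 CPM without (-4.21 ± 0.19; adjusted p = 2.04e-07). Its reference levels were 42.7, 45.0 and 39.6 CPM with inhibitors and 1450, 1590 and 1410 CPM without (-5.10 ± 0.15; adjusted p = 3.56e-09). The groups did not overlap for either gene. WRKY60, the remaining member of IIa, did not pass the test, with log2 fold changes of -0.59 ± 0.35 in palisade and -0.58 ± 0.28 in reference cells.

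WRKY6 (AT1G62300), a group IIb factor of senescence and phosphate responses, followed the same course. In palisade cells it stood at 35.0, 22.4 and 16.5 CPM with inhibitors, against 917, 612 and 618 CPM without (log2 fold change -4.94 ± 0.30; adjusted p = 5.25e-07). In reference cells it stood at 13.4, 12 and 8.63 CPM, against 589, 547 and 532 CPM (-5.59 ± 0.19; adjusted p = 3.70e-09). WRKY28 (AT4G18170) of IIc, which has been tied to salicylic acid synthesis through ICS1, had 30.1, 22.4 and 20.1 CPM in palisade cells with inhibitors, against 732, 555 and 431 CPM without (-4.63 ± 0.25; adjusted p = 3.06e-07). All of these libraries separated by condition without overlap. In reference cells WRKY28 had 9.05, 10.7 and 6.64 CPM with inhibitors, against 566, 502 and 391 CPM without (-5.77 ± 0.23; adjusted p = 7.98e-09).

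Among scarcer members, WRKY75 (AT5G13080), which acts in phosphate starvation and senescence, had 0.297, 0 and 0.117 CPM in palisade cells with inhibitors, against 2.75, 3.23 and 4.48 CPM without (log2 fold change -4.71 ± 0.54; adjusted p = 5.33e-05). WRKY8 (AT5G46350) had no count in the 3 reference libraries with inhibitors, against 1.63, 0.905 and 0.212 CPM without, which puts it at least 6.40-fold lower. WRKY31 (AT4G22070) was likewise at 0 in reference cells with inhibitors and had 0.343, 0.201 and 0.212 CPM without, at least 1.76-fold lower. Both bounds set the mean without inhibitors against 3 counts in a library with them, averaged over the libraries. In palisade cells WRKY31 had a single count at most in a library with inhibitors and did not pass the test.

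WRKY33, the most abundant member, was singled out after its values had been seen. This group I factor is needed for resistance to fungi such as Botrytis and activates PAD3, the last enzyme of camalexin synthesis. It had 206, 221 and 184 CPM in palisade cells with inhibitors, against 2320, 2220 and 2060 CPM without (log2 fold change -3.49 ± 0.18; adjusted p = 2.66e-07), and in reference cells 135, 150 and 152 CPM, against 2240, 2610 and 2510 CPM (-4.04 ± 0.15; adjusted p = 5.76e-09). Its lowest library with inhibitors still held 135 CPM.

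By family group, the members that fell in palisade cells were 4 of 9 in group I, 2 of 3 in IIa, 2 of 3 tested in IIb, 4 of 8 in IIc, 4 of 6 tested in IId, 2 of 4 in IIe and 4 of 7 tested in III. In group I the defence and heat factors WRKY33, WRKY25 and WRKY26 fell together with WRKY2, and WRKY1, WRKY3, WRKY4, WRKY20 and TTG2 did not. WRKY3, which like WRKY4 contributes to resistance against necrotrophic fungi, had 25.6, 24.2 and 29.0 CPM in palisade cells with inhibitors, against 17.0, 15.6 and 20.5 CPM without, a log2 fold change of 0.51 ± 0.16 (adjusted p = 0.0282) that is under the fold limit. TTG2, a factor of leaf hair and seed coat development, had log2 fold changes of 0.42 ± 0.37 in palisade and 0.80 ± 0.39 in reference cells, and neither passed. In group III, WRKY30, WRKY46, WRKY53 and WRKY55 fell, whereas WRKY54 and WRKY70, close relatives that limit senescence and shape salicylic acid signalling, did not pass in either population. Their log2 fold changes in palisade cells were 0.17 ± 0.40 for WRKY54 and -0.17 ± 0.30 for WRKY70, and those in reference cells -0.59 ± 0.24 for WRKY54 and -0.54 ± 0.29 for WRKY70.

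**Figure D2:**
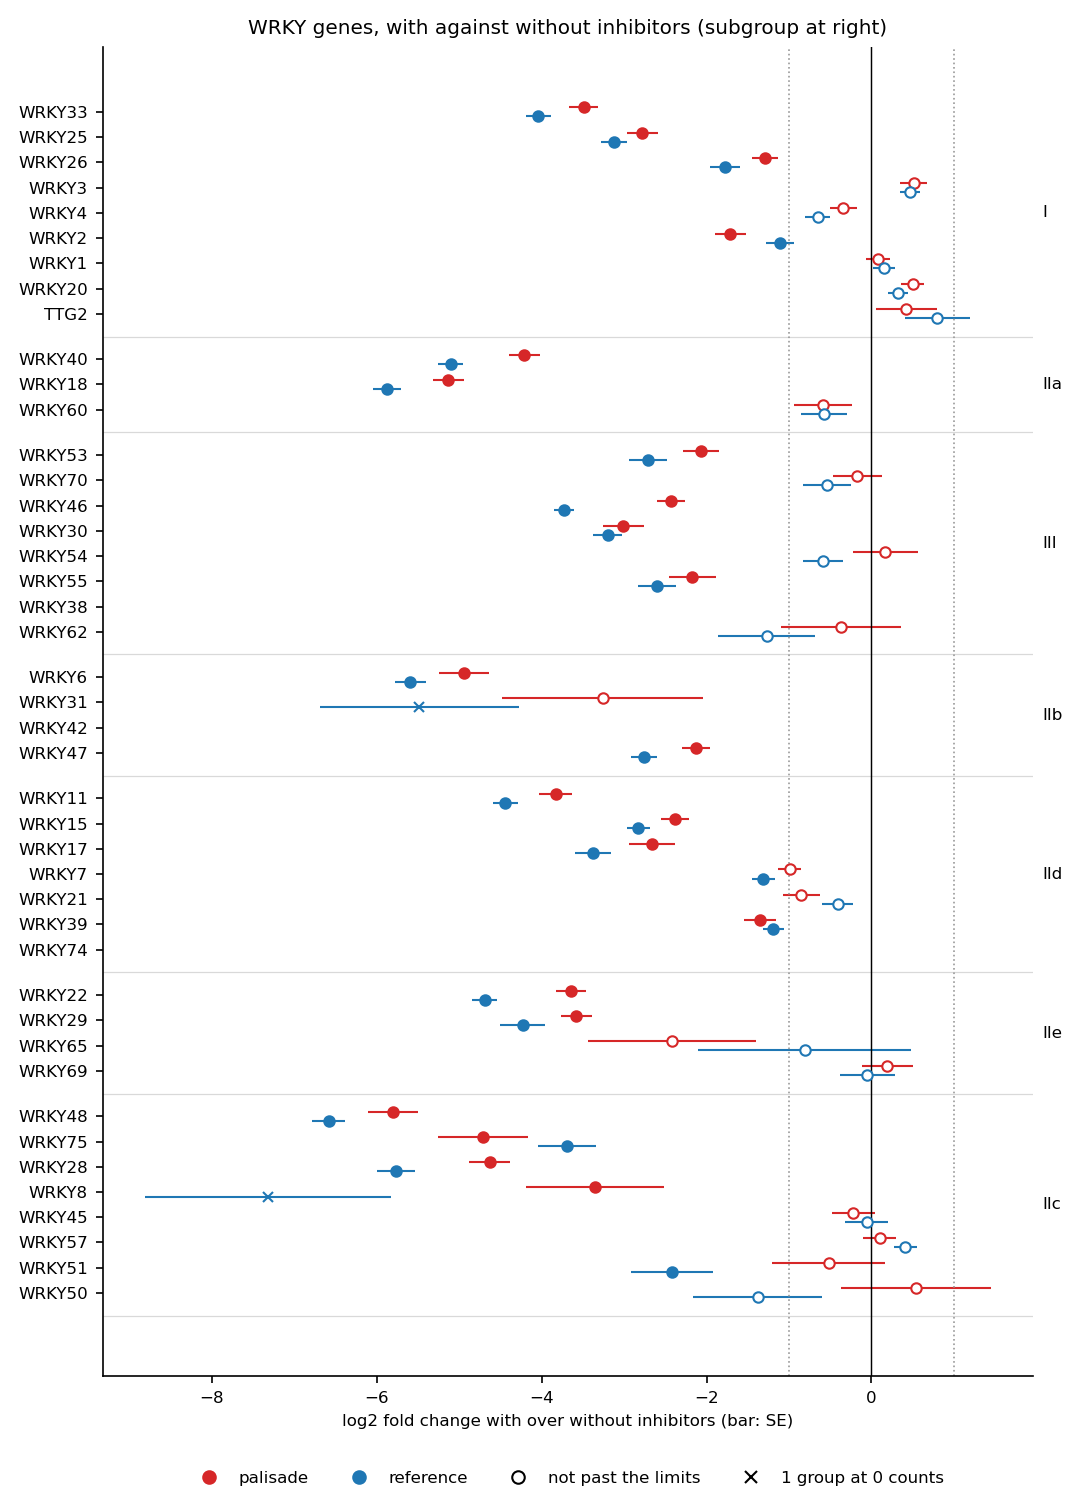
Log2 fold change with against without transcription inhibitors at low light for each WRKY member tested, with SE bars, palisade cells (red) drawn above reference cells (blue). Filled points passed an FDR under 0.05 and a fold above 2, crosses mark a condition with 0 counts in all 3 libraries, and dotted lines stand at a fold of 2; 22 palisade and 25 reference points are filled or crossed on the left and none on the right.

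Other values moved with the inhibitors, and their part in the result was not tested. The libraries with inhibitors at low light held 15074702 to 19233615 counts on genes, against 21446134 to 26681749 without. Of their reads, 0.656% to 0.839% matched no annotated feature by the counting rule, against 1.49% to 2.71% without. The 4 guard cell and myrosin cell markers summed to 28.4 to 131 CPM in palisade cells with inhibitors, against 5.99 to 16.4 CPM without, and 2 of them rose in each population. Mesophyll markers had a median log2 fold change of 0.94 in palisade and 1.05 in reference cells. With upper-quartile scaling the median of all genes moved by 0.31 in palisade and 0.26 in reference cells, and 21 and 23 members then fell, with 1 risen in reference cells. Under that scaling the share of calls over all genes that were higher changed to 23.6%, against 4.35% by TMM, in palisade cells and to 24.7%, against 5.28%, in reference cells.

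The difference in window content between members is given as a description. Of the 22 members that fell in both populations, 13 (59.1%) had a TTGACC or TTGACT match in the 300 bases before the gene start and 6 (27.3%) had at least 2, against 5 (23.8%) and 2 (9.52%) of the 21 others. The TTGAC core was in 18 (81.8%) of the 22 and in 10 (47.6%) of the 21. WRKY33, WRKY53 and WRKY30, printed above, are of the first kind, yet WRKY18, WRKY40, WRKY6 and WRKY22, which fell as far or farther, had no 6-letter match in this window.

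The fall with inhibitors was deeper in reference cells than in palisade cells for many members. In the test of this difference, 17 of 41 members had a less negative change in palisade cells at an FDR under 0.05 and none the reverse, and over all genes 4.4% passed in that direction and 0.346% in the other. The median difference was 0.55 over the members and 0.03 over all genes. Among markers, IQD22 (1.02), 1 of 3 guard cell and myrosin cell markers tested and 1 of 5 phloem markers passed in the members' direction. Of 3 abaxial markers 1 passed in the other direction. The part of these markers in the member values was not tested. WRKY46 (AT2G46400), a group III factor of salicylic acid and drought responses, differed by 1.41 ± 0.15 on the log2 scale (adjusted p = 3.56e-07). It had 9.06, 9.12 and 10 CPM in palisade cells with inhibitors, against 38.8, 57.2 and 51.0 CPM without, and 9.48, 9.32 and 9.84 CPM in reference cells with inhibitors, against 120, 137 and 132 CPM without. Its levels with inhibitors thus overlapped between the populations, and the difference lay in the libraries without.

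WRKY28 differed by 1.25 ± 0.15 and WRKY22 by 1.14 ± 0.12 (adjusted p = 1.82e-06 and 3.56e-07). WRKY22 (AT4G01250), a IIe factor downstream of FLS2 and its MAP kinases, had 65.8, 58.6 and 45.2 CPM in palisade cells with inhibitors, against 651, 666 and 705 CPM without. In reference cells it had 28.7, 30.3 and 23.2 CPM, against 677, 745 and 736 CPM. Here the reverse held: without inhibitors the populations overlapped, and with inhibitors every palisade library was above every reference library.

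The remaining group III, I and II members of this set are given by their levels. WRKY53, a regulator of leaf senescence, had 33.8, 33.2 and 26.3 CPM in palisade cells with inhibitors, against 82.8, 153 and 142 CPM without, and 18.1, 24.3 and 18 CPM in reference cells with inhibitors, against 85.7, 168 and 151 CPM without. WRKY25, which acts with WRKY26 and WRKY33 in heat tolerance, had 24.9, 29.7 and 29.4 CPM in palisade cells with inhibitors, against 227, 163 and 163 CPM without, and 22.6, 26.1 and 29.0 CPM in reference cells with inhibitors, against 259, 212 and 218 CPM without. WRKY26 had 25.7, 36.5 and 30.7 CPM in palisade cells with inhibitors, against 71.2, 77.1 and 71.6 CPM without, and 14.3, 23.0 and 23.9 CPM in reference cells with inhibitors, against 72.2, 75.1 and 67.2 CPM without. All 3 fell in both populations without overlap, though with upper-quartile scaling WRKY26 was under the fold limit in palisade cells (-0.99).

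WRKY11 (AT4G31550) and WRKY17 (AT2G24570) of IId, paired negative regulators of resistance to bacteria, behaved alike. WRKY11 had 91.2, 90.1 and 74.2 CPM in palisade cells with inhibitors, against 1320, 988 and 1170 CPM without, and 44.6, 49.0 and 41.9 CPM in reference cells with inhibitors, against 1070, 914 and 1000 CPM without. WRKY17 was less abundant, with 7.72, 5.32 and 3.70 CPM in palisade cells with inhibitors, against 45.7, 26.5 and 28.0 CPM without and 4.06, 4.17 and 2.62 CPM in reference cells with inhibitors, against 48.0, 32.6 and 34.4 CPM without. WRKY15, a IId factor of growth under oxidative stress, had 93.5, 98.8 and 77.5 CPM in palisade cells with inhibitors, against 505, 395 and 450 CPM without and 67.8, 80.4 and 68.8 CPM in reference cells with inhibitors, against 564, 490 and 520 CPM without. In each of the 3 genes the libraries with inhibitors lay below all those without.

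WRKY47 (AT4G01720) of IIb had 20.3, 15.4 and 12.6 CPM in palisade cells with inhibitors, against 67.6, 72.0 and 61.8 CPM without, and 6.30, 5.21 and 4.60 CPM in reference cells with inhibitors, against 32.9, 43.3 and 35.5 CPM without. WRKY54 had 3.34, 6.26 and 6.52 CPM in palisade cells with inhibitors, against 1.96, 5.14 and 6.80 CPM without and 7.62, 14.8 and 10.7 CPM in reference cells with inhibitors, against 11.8, 19.9 and 19.3 CPM without. WRKY70 (AT3G56400) had 19.1, 28.2 and 27.3 CPM in palisade cells with inhibitors, against 15.1, 26.1 and 39.8 CPM without and 24.4, 44.8 and 43.5 CPM in reference cells with inhibitors, against 31.3, 60.1 and 76.4 CPM without. For WRKY54 and WRKY70 the libraries with and without inhibitors overlapped in both populations, so the differences of 0.89 ± 0.22 and 0.49 ± 0.13 concern changes that did not themselves pass. The count of 17 rested on keeping the pools as blocks: without the block 2 members passed, and leaving out the replicate 3 pool without inhibitors left 9.

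The partners of WRKY proteins and the upstream kinases and receptors moved with them. Of 14 genes of that list, 12 fell with inhibitors in palisade cells (median -1.97) and 12 in reference cells (median -2.26). FLS2, the flagellin receptor, had log2 fold changes of -4.68 in palisade and -4.70 in reference cells, and EDS1, a hub of immune signalling, -2.82 in palisade and -2.96 in reference cells. The kinase MKK4 fell by 2.45 and 2.73 on the log2 scale in palisade and in reference cells. MPK3 fell by 2.45 in palisade cells, and SIB1, which binds WRKY33, fell by 3.09 in reference cells. Of genes described as WRKY targets, 6 of 11 tested fell in palisade and 7 of 10 in reference cells, led by the ethylene synthesis gene ACS2 (-4.36 in palisade and -4.83 in reference cells). Next by size in palisade cells were the kinase gene FRK1 at -3.83, ACS6 at -3.35 and the camalexin gene CYP71A13 at -3.09, and in reference cells their log2 fold changes were -4.18 for FRK1, -4.35 for ACS6 and -3.68 for CYP71A13.

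The comparison of high with low light asks what 2 h of brighter light does to each population, with inhibitors in all 12 libraries. Fewer members responded than to the inhibitors, and most of those that did rose. In palisade cells 5 of 39 members tested rose and 2 fell, against a background over all genes of 8.07% risen and 5.15% fallen. In reference cells 12 of 38 rose and 1 fell, against 10.1% and 6.57%. The median log2 fold change of members was 0.28 in palisade and 0.65 in reference cells, against -0.01 and -0.02 over all genes. WRKY31, WRKY38, WRKY65 and WRKY74 had too few counts to be tested in either population, nor had WRKY8 enough in reference cells. The low-light libraries with inhibitors are the same ones as in the comparison of inhibitors.

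The members that rose in both populations were WRKY42, WRKY75, WRKY45 and WRKY6, all of them linked to phosphate supply in earlier work. WRKY42 (AT4G04450), a repressor of the phosphate exporter gene PHO1, had 0.984, 0.846 and 1.89 CPM in high-light palisade cells and no count in the 3 low-light libraries, and was at least 6.22-fold higher. In reference cells it had 20 counts over the high-light libraries and 1 over the low-light ones, a ratio of 24.7 (exact 95% interval 3.96 to 1030, counting error only). With a high-light library left out, too few libraries held counts for WRKY42 to be tested, in either population. WRKY75 had 3.63, 2.78 and 1.38 CPM in high-light palisade cells, against 0.297, 0 and 0.117 CPM at low light (log2 fold change 4.10 ± 0.63; adjusted p = 0.000362). None of the high-light libraries overlapped the low-light ones for these genes.

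In reference cells WRKY75 had 4.23, 3.79 and 1.44 CPM at high light, against 0.127, 0.208 and 0.194 CPM at low light (log2 fold change 3.93 ± 0.51; adjusted p = 9.53e-05). WRKY45 (AT3G01970), an activator of the phosphate transporter gene PHT1;1, had 20.8, 25.3 and 17.0 CPM in high-light palisade cells, against 4.75, 3.26 and 4.29 CPM (2.25 ± 0.20; adjusted p = 5.0e-06). In reference cells it had 20.3, 18.3 and 13.5 CPM, against 2.50, 2.86 and 3.97 CPM (2.28 ± 0.21; adjusted p = 8.79e-06). The libraries of WRKY45 did not overlap between lights in either population. WRKY6 had 93.7, 73.6 and 65.1 CPM in high-light palisade cells, against 35.0, 22.4 and 16.5 CPM (1.55 ± 0.22; adjusted p = 0.000188), and in reference cells 68.3, 49.3 and 36.8 CPM, against 13.4, 12 and 8.63 CPM (1.98 ± 0.21; adjusted p = 2.43e-05). WRKY57 (AT1G69310), known from drought tolerance and senescence, had 18.7, 17.2 and 15.3 CPM in high-light palisade cells, against 9.28, 6.26 and 5.99 CPM (1.15 ± 0.17; adjusted p = 0.000301). The other 4 genes named here passed in reference cells as well, but the reference change of WRKY57, at 1.00 ± 0.20, was at the fold limit and was not called.

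WRKY54 fell the most in both populations. It had 0.757, 0.362 and 0.291 CPM in high-light palisade cells, against 3.34, 6.26 and 6.52 CPM at low light (log2 fold change -3.64 ± 0.40; adjusted p = 2.96e-05), and in reference cells 1.78, 1.61 and 1.76 CPM, against 7.62, 14.8 and 10.7 CPM (-2.87 ± 0.26; adjusted p = 6.67e-06). Its relative WRKY70 had 14.8, 9.54 and 10 CPM in high-light palisade cells, against 19.1, 28.2 and 27.3 CPM (-1.24 ± 0.19; adjusted p = 0.000418). No high-light palisade library reached a low-light one for either gene. In reference cells WRKY70 changed by -0.75 ± 0.20, under the fold limit, with 30.0, 23.8 and 23.2 CPM at high light, against 24.4, 44.8 and 43.5 CPM at low light, and these groups overlapped.

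WRKY54 lies beside another member on chromosome 2. WRKY55 (AT2G40740) spans 16997078 to 16999499 on the plus strand and WRKY54 spans 17000419 to 17002528 on the minus strand (TAIR10.1), so the genes point at each other with 919 bases between them. WRKY55, a promoter of senescence and defence, had 3.62, 3.06 and 2.41 CPM in high-light reference cells, against 0.677, 1.04 and 0.969 CPM at low light (log2 fold change 1.56 ± 0.29; adjusted p = 0.00106). In palisade cells its change of 0.68 ± 0.46 did not pass, with 2.95, 1.09 and 1.02 CPM at high light, against 1.19, 1.13 and 0.587 CPM at low light. The neighbours therefore moved in opposite directions in reference cells. The counts are strand-specific, which keeps reads of the facing genes apart.

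Of the other members that rose in reference cells alone, WRKY33 had 407, 375 and 397 CPM at high light, against 135, 150 and 152 CPM (log2 fold change 1.24 ± 0.11; adjusted p = 6.26e-06). WRKY25 rose by 1.18 ± 0.12, WRKY29 by 1.18 ± 0.32, WRKY40 by 1.14 ± 0.10, WRKY17 by 1.10 ± 0.24, WRKY30 by 1.06 ± 0.18 and WRKY60 by 1.01 ± 0.33 on the log2 scale. Several of these stood close to the fold limit. Without the high-light reference library of replicate 1 the total of 13 became 8. WRKY17 (0.95), WRKY29 (0.97), WRKY30 (0.88) and WRKY60 (0.85) lost the call, and WRKY42 had too few counts to be tested. WRKY17, WRKY29, WRKY30 and WRKY60 were also lost without the low-light library of replicate 3 (0.92, 0.91, 0.93 and 0.80). WRKY60 was lost in addition without the replicate 2 library of either light, and WRKY30 and WRKY60 were under the fold limit with upper-quartile scaling (0.97 and 0.91).

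**Figure D3:**
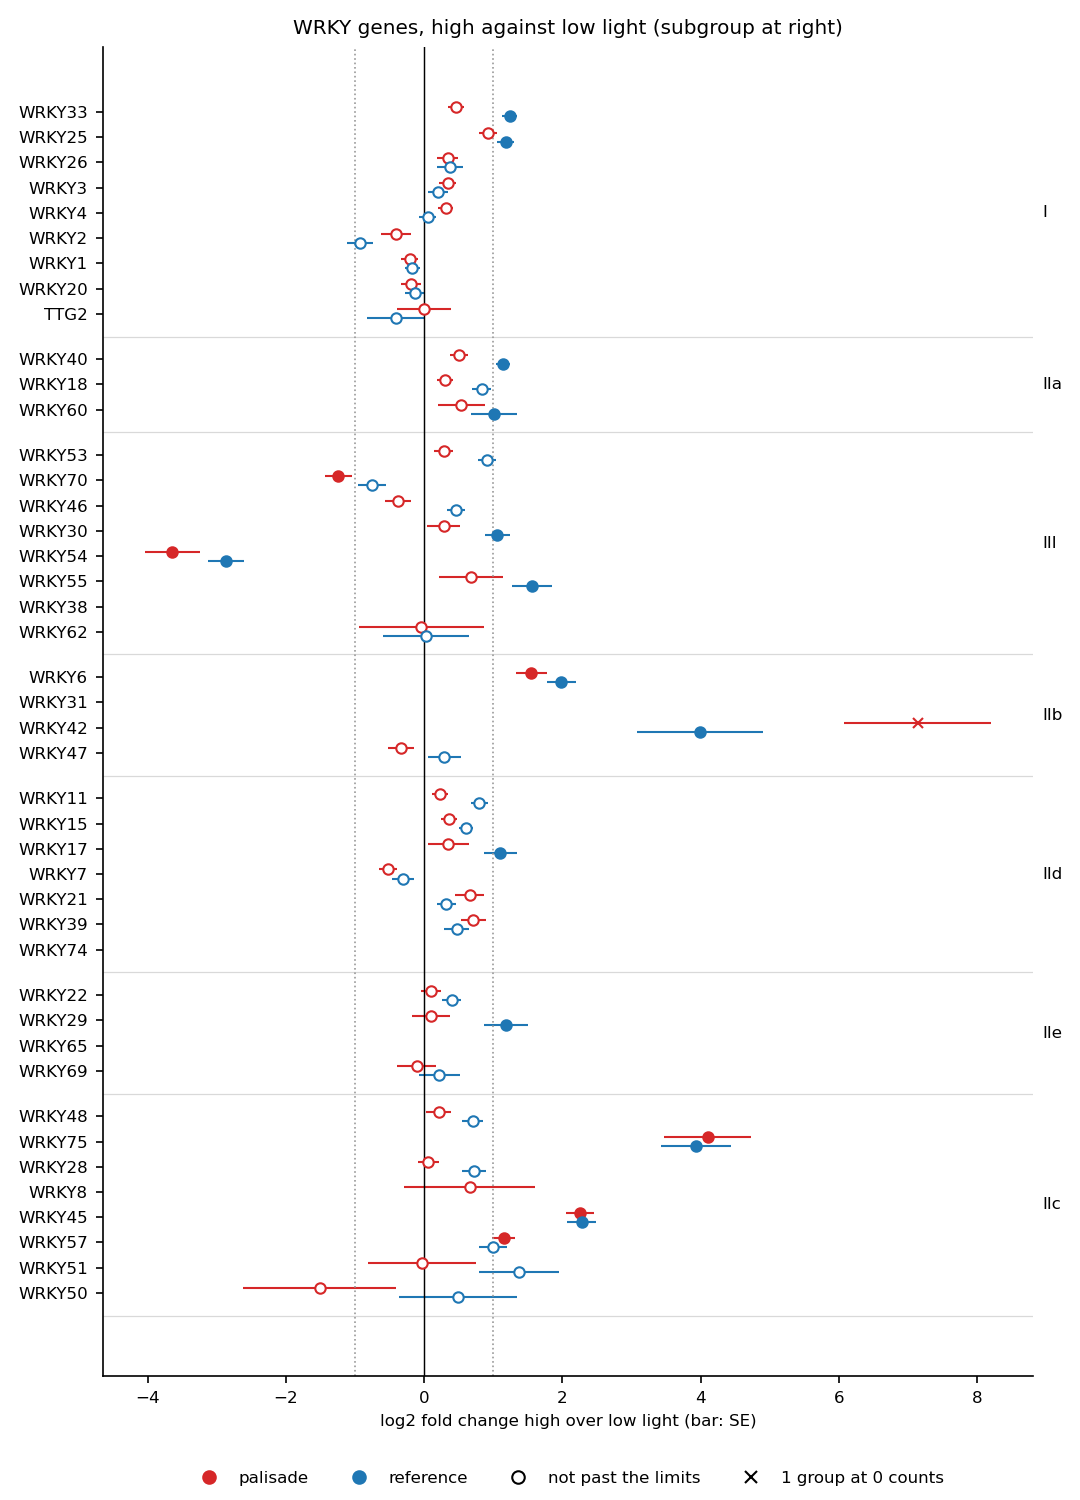
Log2 fold change of high against low light, both with inhibitors, for each WRKY member tested, with SE bars, palisade cells (red) above reference cells (blue). Filled points passed an FDR under 0.05 and a fold above 2 and crosses mark a condition with 0 counts; WRKY54 is far to the left in both populations, and WRKY42, WRKY75, WRKY45 and WRKY6 are to the right in both.

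When the difference in light response was tested, 12 of 40 members had a lower response in palisade than in reference cells at an FDR under 0.05 and none a higher one, against 3.71% and 1.83% of all genes. The median difference was -0.39 over members and -0.01 over all genes. The low-light libraries with inhibitors enter this test and that of the inhibitor response with opposite sign, so the tests are not independent. All of the 12 but WRKY30 were also among the 17 members of that earlier test. WRKY33 differed by -0.81 ± 0.10 (adjusted p = 1.88e-06): it had 322, 272 and 313 CPM in palisade cells at high light, against 206, 221 and 184 CPM at low light, a change of 0.46 ± 0.12, where reference cells changed by 1.24. WRKY40 differed by -0.66 ± 0.11 (adjusted p = 0.000176), with 104, 84.1 and 84.0 CPM in palisade cells at high light, against 66.3, 60.8 and 49.8 CPM at low light and 112, 105 and 104 CPM in reference cells at high light, against 42.7, 45.0 and 39.6 CPM at low light. Palisade cells had the larger amount of both genes at low light and the smaller amount at high light, without overlap.

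WRKY46 differed by -0.88 ± 0.19, with 10.4, 6.89 and 6.40 CPM in palisade cells at high light, against 9.06, 9.12 and 10 CPM at low light, and 14.3, 15.9 and 14.9 CPM in reference cells at high light, against 9.48, 9.32 and 9.84 CPM at low light. WRKY17 differed by -0.80 ± 0.23, with 7.27, 10.4 and 4.87 CPM in palisade cells at high light, against 7.72, 5.32 and 3.70 CPM at low light and 10.9, 9.57 and 6.15 CPM in reference cells at high light, against 4.06, 4.17 and 2.62 CPM at low light. WRKY30, which is induced by oxidative stress, differed by -0.79 ± 0.15, with 28.3, 17.2 and 21.8 CPM in palisade cells at high light, against 24.9, 16.0 and 10.7 CPM at low light and 32.0, 20.8 and 22.5 CPM in reference cells at high light, against 12.4, 10.8 and 8.24 CPM at low light. In these 3 genes only the reference libraries separated by light.

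The same held for WRKY48 and WRKY28. WRKY28 differed by -0.69 ± 0.15, with 31, 26.9 and 23.8 CPM in palisade cells at high light, against 30.1, 22.4 and 20.1 CPM at low light and 17.8, 17.1 and 14.8 CPM in reference cells at high light, against 9.05, 10.7 and 6.64 CPM at low light. WRKY48 differed by -0.53 ± 0.16 (adjusted p = 0.0483), with 23.9, 15.8 and 18.1 CPM in palisade cells at high light, against 19.8, 14.5 and 12.1 CPM at low light and 17.2, 16.8 and 13.7 CPM in reference cells at high light, against 9.52, 8.90 and 7.32 CPM at low light. WRKY47 differed by -0.64 ± 0.17, with 17.6, 12.4 and 11.3 CPM in palisade cells at high light, against 20.3, 15.4 and 12.6 CPM at low light and 11.1, 6.18 and 5.56 CPM in reference cells at high light, against 6.30, 5.21 and 4.60 CPM at low light. For WRKY47 the light groups overlapped in both populations.

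WRKY53 differed by -0.67 ± 0.13, with 48.2, 34.3 and 40.4 CPM in palisade cells at high light, against 33.8, 33.2 and 26.3 CPM at low light and 46.4, 41.4 and 42.2 CPM in reference cells at high light, against 18.1, 24.3 and 18 CPM at low light. WRKY11 differed by -0.59 ± 0.11, with 118, 105 and 99.8 CPM in palisade cells at high light, against 91.2, 90.1 and 74.2 CPM at low light and 105, 84.4 and 80.8 CPM in reference cells at high light, against 44.6, 49.0 and 41.9 CPM at low light. WRKY18 differed by -0.56 ± 0.14, with 37.7, 39.4 and 33.0 CPM in palisade cells at high light, against 29.8, 28.5 and 24.9 CPM at low light and 28.9, 32.5 and 38.2 CPM in reference cells at high light, against 16.5, 18.6 and 14.1 CPM at low light. These 3 were higher at high light in every library of both populations. WRKY70, whose levels stand above, differed by -0.55 ± 0.14. The count of 12 also rested on the pool block: without it no member passed, with 9 at an unadjusted p under 0.05, and DESeq2 called 7.

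Of the partners and upstream signalling genes, 2 of the list fell in palisade cells at high light (SIB2 by 1.96 and FLS2 by 1.02 on the log2 scale). In reference cells MKK4 rose by 1.29, and SIB2 and FLS2 fell by 1.41 and 1.22. The light response was lower in palisade cells for 6 of the list, with differences of -0.88 for MKK4, -0.65 for MPK3, -0.60 for EDS1 and -0.58 for MKS1. Among described targets, the camalexin genes PAD3 and CYP71A13 rose by 3.85 and 3.74 in palisade cells and by 5.01 and 4.87 in reference cells, and FRK1 by 1.56 in palisade and 3.10 in reference cells. CYP71A12, of the same pathway, had no count in low-light reference cells and was at least 8.67-fold higher at high light. SARD1, a regulator of salicylic acid synthesis, fell by 1.18 in palisade cells. The phosphate genes among the described targets, named above with WRKY42 and WRKY45, were called in neither population. The difference between populations passed for FRK1 (-1.63), PAD3 (-1.11) and CBP60g (-0.66). Guard cell and myrosin cell markers summed to 5.38 to 74.4 CPM in palisade cells at high light, against 28.4 to 131 CPM at low light. Abaxial markers summed to 1320 to 2030 CPM in reference cells at high light, against 632 to 708 CPM at low light. Neither list had a marker past the test of the difference between populations. All 3 mesophyll markers (-0.53 to -0.36) and IQD22 (-0.58) passed it in the lower direction, and 2 of 5 phloem markers in the higher. The part of these markers in the light responses was not tested.

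The comparisons of palisade with reference cells ask which genes mark the palisade layer among green cells. Few members did. Those that passed were mostly lower in palisade cells at high light and without inhibitors, and mostly higher with inhibitors at low light. Calls over all genes were mostly lower in palisade cells in each condition. With inhibitors at high light 1 of 39 members was higher and 4 were lower, against a background of 2.06% and 6.36%. With inhibitors at low light 3 of 37 were higher and 1 was lower, against 2.13% and 5.56%, and without inhibitors none of 41 was higher and 5 were lower, against 2.04% and 6.7%. The median log2 fold change of members was -0.15 at high light, where that of all genes was -0.01, 0.22 with inhibitors at low light (-0.03 over all genes) and -0.11 without inhibitors (0.00 over all genes). More members passed the FDR when no fold was asked for: 21 at high light, 10 of them higher, where 37.2% of all genes passed in either direction, 22 with inhibitors at low light, 17 of them higher (30.3% of all genes), and 19 without inhibitors, 8 of them higher (34.8% of all genes).

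The members lower in palisade cells were group III factors together with WRKY51. WRKY54 was lower under all 3 conditions. It had 0.757, 0.362 and 0.291 CPM in palisade cells, against 1.78, 1.61 and 1.76 CPM in reference cells, with inhibitors at high light (log2 fold change -1.95 ± 0.41; adjusted p = 0.000209). With inhibitors at low light it had 3.34, 6.26 and 6.52 CPM, against 7.62, 14.8 and 10.7 CPM (-1.16 ± 0.15; adjusted p = 3.99e-06). Without inhibitors it had 1.96, 5.14 and 6.80 CPM, against 11.8, 19.9 and 19.3 CPM (-1.96 ± 0.15; adjusted p = 3.80e-08). Palisade cells were lower in each of the 9 pools, and the groups never overlapped.

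WRKY70 was lower in palisade cells in each of these pools too. At high light it had 14.8, 9.54 and 10 CPM in palisade cells, against 30.0, 23.8 and 23.2 CPM in reference cells (log2 fold change -1.24 ± 0.10; adjusted p = 4.51e-12), and without inhibitors 15.1, 26.1 and 39.8 CPM, against 31.3, 60.1 and 76.4 CPM (-1.10 ± 0.09; adjusted p = 6.05e-08). Without inhibitors the populations overlapped, since all levels differed between pools, and without the pool block WRKY70 was not called there (-1.09; adjusted p = 0.094). With inhibitors at low light the change was -0.71 ± 0.09, under the fold limit.

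WRKY46 had 38.8, 57.2 and 51.0 CPM in palisade cells without inhibitors, against 120, 137 and 132 CPM in reference cells (log2 fold change -1.46 ± 0.09; adjusted p = 1.68e-09). At high light it had 10.4, 6.89 and 6.40 CPM, against 14.3, 15.9 and 14.9 CPM (-1.02 ± 0.13; adjusted p = 1.25e-07). The high-light value stood at the fold limit, and was -0.89 without replicate 2 and -0.90 without replicate 3. With inhibitors at low light the change was -0.16 ± 0.12 and did not pass.

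WRKY51 (AT5G64810) of IIc, which with WRKY50 links salicylic and jasmonic acid signalling, was scarce but lower in palisade cells. It had 0.0982, 0.477 and 0.263 CPM in palisade cells without inhibitors, against 0.986, 2.36 and 1.99 CPM in reference cells (log2 fold change -2.72 ± 0.35; adjusted p = 1.19e-05). At high light it had 0.454, 0.0604 and 0.145 CPM, against 1.5, 0.501 and 0.909 CPM (-2.24 ± 0.60; adjusted p = 0.00303). WRKY62 (AT5G01900), a group III repressor of basal defence, had 0.294, 0.159 and 0.132 CPM without inhibitors, against 1.20, 0.402 and 0.593 CPM (-1.91 ± 0.48; adjusted p = 0.00480), which was called neither by DESeq2 (adjusted p = 0.0638) nor by edgeR without the pool block (adjusted p = 0.0527). Both genes were lower in palisade cells in every pool of these comparisons.

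The members higher in palisade cells were WRKY47, WRKY28 and WRKY29 with inhibitors at low light and WRKY42 at high light. WRKY47 had 20.3, 15.4 and 12.6 CPM in palisade cells, against 6.30, 5.21 and 4.60 CPM in reference cells (log2 fold change 1.44 ± 0.12; adjusted p = 1.92e-08). WRKY28 had 30.1, 22.4 and 20.1 CPM, against 9.05, 10.7 and 6.64 CPM (1.33 ± 0.12; adjusted p = 4.87e-08). WRKY29 (AT4G23550), the partner of WRKY22 below FLS2, had 3.64, 2.46 and 2.06 CPM, against 1.35, 1.30 and 0.630 CPM (1.18 ± 0.27; adjusted p = 0.00212). In all 3 genes palisade cells were higher in 3 of 3 pools without overlap. WRKY47 was also higher in each pool of the other conditions, by 0.82 ± 0.13 at high light and 0.82 ± 0.09 without inhibitors, under the fold limit. WRKY42 at high light had 0.984, 0.846 and 1.89 CPM in palisade cells, against 0.410, 0.390 and 0.374 CPM (1.56 ± 0.48; adjusted p = 0.00956); without replicate 3 it was 1.11 (adjusted p = 0.199), and DESeq2 did not call it (adjusted p = 0.104).

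**Figure D4:**
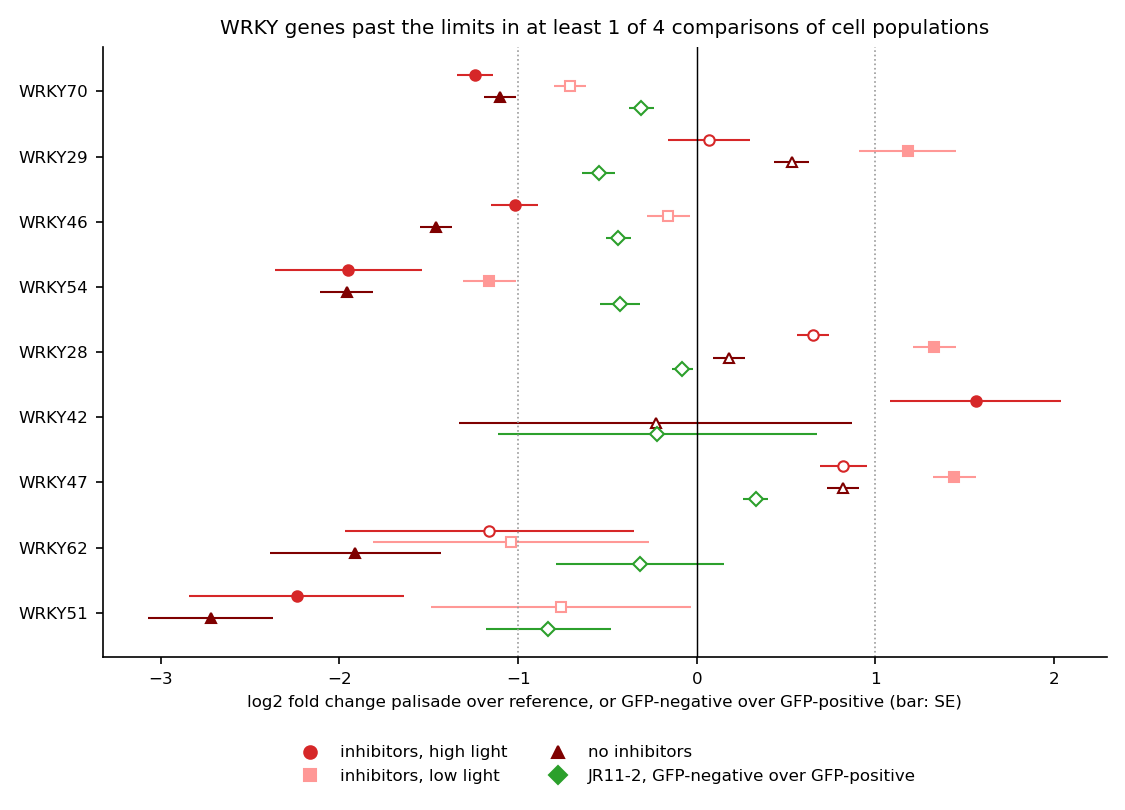
Log2 fold change of palisade against reference cells in the IQD22 line under 3 conditions, and of GFP-negative against GFP-positive cells in JR11-2, for the 9 WRKY members called in at least 1 of these comparisons, with SE bars. Filled points passed an FDR under 0.05 and a fold above 2; WRKY54 is left of the fold limit in all 3 IQD22 comparisons, and every JR11-2 point is open.

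The reference cells also held more of several other cell types, and what part these had in the population differences was not tested. All 3 abaxial or spongy markers were lower in palisade cells in each condition, with median log2 fold changes of -6.02 at high light, -5.90 with inhibitors at low light and -4.93 without inhibitors. The vein marker SULTR2;2 had 0.589 to 1.8 CPM in palisade cells without inhibitors, against 50.0 to 62.3 CPM in reference cells. Without inhibitors, phloem markers summed to 8.11 to 10.8 CPM in palisade cells, against 22.7 to 40.0 CPM in reference cells, and procambium and xylem contact markers to 3.98 to 5.15 CPM in palisade cells, against 14.9 to 15.5 CPM in reference cells. Guard cell and myrosin cell markers summed to 5.99 to 16.4 CPM in palisade cells, against 61.4 to 147 CPM in reference cells, and epidermal markers to 1.23 to 2.37 CPM, against 3.30 to 5.68 CPM in reference cells. The 2 epidermal markers went opposite ways in each condition. Their log2 fold changes were -2.43 and 0.7 at high light, -2.04 and 1.0 with inhibitors at low light, and -1.95 and 0.37 without inhibitors. Only the negative value was called each time. FAMA, which defines guard and myrosin cells, had no count in the palisade libraries without inhibitors. Only 2 of the 4 guard cell and myrosin cell markers had enough counts to be tested in that comparison.

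Few genes around the WRKY proteins differed between the populations. Of partners and upstream genes, none passed with inhibitors at low light, SIB1 was lower in palisade cells without inhibitors (-1.0), and SIB2 and MPK3 were lower at high light (-1.18 and -1.0). Of described targets, SARD1 was lower in palisade cells in each condition, by 1.97 at high light, 1.36 with inhibitors at low light and 2.34 without inhibitors on the log2 scale. FRK1 was higher by 1.54 with inhibitors at low light and by 1.18 without inhibitors, PAD3 and CYP71A13 were lower at high light (-1.32 and -1.06), and PHT1;1 and CYP71A12 were higher without inhibitors (3.45 and 2.02).

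In JR11-2, none of 40 members tested passed the limits between GFP-negative and GFP-positive cells by edgeR, nor by DESeq2, against 2.16% of all genes by edgeR in either direction. At an unadjusted p under 0.05 the count was 20 by edgeR and 17 by DESeq2, and at an FDR under 0.05 with any fold it was 17, of which 13 were lower in GFP-negative cells, where 19.8% of all genes passed. The median log2 fold change of members was -0.14. WRKY60 had 2.83, 2.95 and 2.23 CPM in GFP-negative cells, against 3.44, 4.79 and 5.09 CPM in GFP-positive cells (-0.72 ± 0.18; adjusted p = 0.00555). WRKY30 had 104, 94.2 and 135 CPM, against 79.6, 74.2 and 93.5 CPM (0.40 ± 0.06; adjusted p = 4.41e-05). These groups did not overlap, but both differences were under the fold limit.

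The population difference of the IQD22 line without inhibitors was tested against that of JR11-2. For 7 of 41 members the difference was lower in the IQD22 line and for 6 it was higher at an FDR under 0.05, against 7.35% and 7.86% of all genes, and the median was 0.00, against 0.03 over all genes. With upper-quartile scaling the member counts were the same, whereas the share of calls over all genes that were higher became 40.0%, against 51.7%. Those 12 libraries include the ones without inhibitors used above, so the 2 tests are not independent. All 7 members of the lower kind had a negative difference in the IQD22 line. WRKY54 differed by -1.51 ± 0.20 (adjusted p = 2.39e-06) and had 9.01, 6.70 and 5.44 CPM in GFP-negative cells, against 11.2, 8.76 and 8.13 CPM in GFP-positive cells. WRKY46 differed by -1.0 ± 0.12, with 96.7, 76.5 and 78.1 CPM in GFP-negative cells, against 118, 95.7 and 124 CPM in GFP-positive cells. WRKY70 differed by -0.78 ± 0.11, with 56.2, 42.4 and 24.6 CPM in GFP-negative cells, against 63.2, 53.3 and 32.4 CPM in GFP-positive cells. In JR11-2 the 3 genes were lower in GFP-negative cells in every pool, by smaller amounts and with overlapping groups.

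WRKY51 differed by -1.87 ± 0.53 between the lines, with 0.325, 0.767 and 0.829 CPM in GFP-negative cells, against 0.900, 0.942 and 1.59 CPM in GFP-positive cells. WRKY55 differed by -0.63 ± 0.20, with 3.30, 5.53 and 7.82 CPM in GFP-negative cells, against 3.27, 4.10 and 7.14 CPM in GFP-positive cells, and in the IQD22 line it had 4.47, 3.98 and 3.99 CPM in palisade cells, against 5.83, 5.08 and 5.63 CPM in reference cells. WRKY40 differed by -0.32 ± 0.09, with 1030, 995 and 1360 CPM in GFP-negative cells, against 1210, 1150 and 1500 CPM in GFP-positive cells. Of these 3 genes, WRKY40 and WRKY55 overlapped between the populations of JR11-2 and WRKY51 did not. WRKY25 differed by -0.30 ± 0.09, with 198, 229 and 274 CPM in GFP-negative cells, against 212, 241 and 263 CPM in GFP-positive cells.

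Members with the higher difference in the IQD22 line included 4 whose sign was opposite in the lines. WRKY60 differed by 1.51 ± 0.26 (adjusted p = 0.000102), and in the IQD22 line it had 2.75, 7.90 and 4.96 CPM in palisade cells, against 1.97, 3.47 and 3.13 CPM in reference cells. WRKY29 differed by 1.09 ± 0.14, with 32.1, 30.4 and 30.2 CPM in palisade cells, against 26.1, 17.1 and 19.7 CPM in reference cells, and 13.1, 25.0 and 38.9 CPM in GFP-negative cells, against 19.1, 30.3 and 66.0 CPM in GFP-positive cells. WRKY75 differed by 0.97 ± 0.26, with 2.75, 3.23 and 4.48 CPM in palisade cells, against 2.06, 2.26 and 2.75 CPM in reference cells, and 0.511, 2.50 and 4.56 CPM in GFP-negative cells, against 0.573, 3.48 and 6.14 CPM in GFP-positive cells. Each of the 3 was higher in palisade cells and lower in GFP-negative cells in every pool.

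WRKY45 was the fourth and differed by 0.96 ± 0.23, with 3.04, 5.41 and 5.31 CPM in palisade cells, against 2.53, 3.12 and 4.28 CPM in reference cells, and 2.28, 3.72 and 6.32 CPM in GFP-negative cells, against 4.01, 5.53 and 7.40 CPM in GFP-positive cells. WRKY47 differed by 0.50 ± 0.11, with 51.2, 54.4 and 44.2 CPM in GFP-negative cells, against 38.3, 42.4 and 36.9 CPM in GFP-positive cells, and WRKY7 by 0.44 ± 0.12. WRKY7 (AT4G24240), a calmodulin-binding member of IId, had 29.8, 39.0 and 38.3 CPM in palisade cells, against 22.3, 26.4 and 23.4 CPM in reference cells, and 33.5, 26.5 and 19.4 CPM in GFP-negative cells, against 29.3, 24.6 and 18.7 CPM in GFP-positive cells. WRKY47 and WRKY7 were higher in the palisade or GFP-negative population of both lines. Without the pool block 1 member passed this test, and the count of 13 became 7 without the IQD22 pool of replicate 3 and 8 without the JR11-2 pool of replicate 3. Of the partners, upstream genes and described targets, SARD1 alone was called in JR11-2, at -1.78. The vein marker SULTR2;2 was lower in GFP-negative cells there, with 10.6 to 19.3 CPM against 27.3 to 46.2 CPM in GFP-positive cells, and phloem markers, of which 2 of 5 were called higher, summed to 21.1 to 52.7 CPM in GFP-negative cells, against 15.1 to 27.7 CPM in GFP-positive cells; their part in the member values was not tested. Between the lines 4 partners and upstream genes differed in the lower direction, and of the targets 2 in the higher and 1 in the lower direction.

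The comparisons with root set organs against each other without inhibitors, and the same root libraries serve both. Most members called were lower in root than in leaf cells. Against palisade cells 10 of 43 members were higher and 23 lower in root, where 38.2% and 27.1% of all genes passed. Against reference cells 11 were higher and 23 lower, where 36.7% and 27.4% passed. The median log2 fold change of members was -1.37 against palisade and -1.72 against reference cells, whereas that of all genes was 0.38 and 0.32. All 3 members of IIa were lower in root in both comparisons, and of the 8 members of group III 5 were lower than in palisade and 7 lower than in reference cells.

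WRKY65 (AT1G29280) of IIe was a gene of root in these libraries. It had 59.3, 81.1 and 45.6 CPM in root, against 0.393, 0.159 and 0.219 CPM in palisade cells (log2 fold change 7.85 ± 0.35; adjusted p = 2.14e-10) and 0, 0.101 and 0.169 CPM in reference cells (9.32 ± 0.43; adjusted p = 8.17e-10). WRKY38 (AT5G22570), a group III repressor of basal defence that acts with the histone deacetylase HDA19, had 4.33, 6.65 and 3.52 CPM in root. It had no count in palisade cells without inhibitors, so root was at least 33.1-fold higher, and 3 counts in reference cells against 791 in root, a ratio of 107 (exact 95% interval 36.5 to 520). Neither gene had a leaf library near the root ones.

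WRKY42 had 3.37, 3.03 and 2.12 CPM in root, against 0.0982, 0 and 0.0878 CPM in palisade cells (log2 fold change 5.36 ± 0.55; adjusted p = 9.30e-07) and 0.0857, 0.101 and 0.0423 CPM in reference cells (5.13 ± 0.46; adjusted p = 4.06e-07). WRKY31, also of IIb, had 5.33, 7.28 and 5.32 CPM in root, against 0.540, 0.159 and 0.0878 CPM in palisade (4.48 ± 0.46; adjusted p = 8.61e-07) and 0.343, 0.201 and 0.212 CPM in reference cells (4.49 ± 0.34; adjusted p = 8.15e-08). TTG2 (AT2G37260) had 9.81, 9.57 and 9.29 CPM in root, against 0.540, 0.689 and 0.527 CPM in palisade (4.0 ± 0.28; adjusted p = 1.87e-08) and 0.471, 0.553 and 0.381 CPM in reference cells (4.30 ± 0.27; adjusted p = 1.27e-08). Root libraries stood above all leaf libraries for these 3 genes, and those of TTG2 agreed closely among themselves.

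WRKY51 had 5.93, 10.1 and 7.41 CPM in root, against 0.0982, 0.477 and 0.263 CPM in palisade cells (log2 fold change 4.77 ± 0.42; adjusted p = 2.02e-07). WRKY69 (AT3G58710), of IIe like WRKY65, had 29.4, 40.3 and 22.8 CPM in root, against 2.14, 2.01 and 3.34 CPM in reference cells (3.56 ± 0.27; adjusted p = 7.94e-08). WRKY74 had 36 counts in root, against 1 in palisade cells (ratio 13.5, exact 95% interval 2.28 to 550) and 3 in reference cells (4.87, 1.54 to 24.7), all 3 of them in 1 library. Its call against reference cells was lost under DESeq2 (adjusted p = 0.1) and without the reference library of replicate 1 or 2 or the root library of replicate 1 or 3 (adjusted p = 0.0627 to 0.136). WRKY39, WRKY75 and WRKY69 were higher in root in both comparisons as well, whereas WRKY8 was called higher against reference cells alone (1.31 ± 0.51), and not without the reference library of replicate 2 or 3 or the root library of replicate 3.

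WRKY55 was the most depleted in root. It had 0.0427, 0.0544 and 0.0159 CPM in root, against 4.47, 3.98 and 3.99 CPM in palisade cells (log2 fold change -6.73 ± 0.44; adjusted p = 8.99e-09) and 5.83, 5.08 and 5.63 CPM in reference cells (-7.16 ± 0.40; adjusted p = 4.97e-09). WRKY22 had 13.0, 12.5 and 15.6 CPM in root, against 651, 666 and 705 CPM in palisade (-5.65 ± 0.24; adjusted p = 1.46e-10) and 677, 745 and 736 CPM in reference cells (-5.76 ± 0.22; adjusted p = 2.18e-10). WRKY53 had 4.50, 3.32 and 1.93 CPM in root, against 82.8, 153 and 142 CPM in palisade (-5.32 ± 0.34; adjusted p = 8.45e-09) and 85.7, 168 and 151 CPM in reference cells (-5.43 ± 0.35; adjusted p = 1.73e-08). All root libraries were below all leaf libraries without inhibitors.

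WRKY11 had 31.3, 33.9 and 31.2 CPM in root, against 1320, 988 and 1170 CPM in palisade cells (log2 fold change -5.20 ± 0.24; adjusted p = 3.40e-10) and 1070, 914 and 1000 CPM in reference cells (-5.01 ± 0.21; adjusted p = 3.74e-10). WRKY30 had 3.80, 3.32 and 2.80 CPM in root, against 132, 145 and 118 CPM in palisade (-5.34 ± 0.22; adjusted p = 1.12e-10) and 80.7, 119 and 95.6 CPM in reference cells (-4.95 ± 0.22; adjusted p = 6.00e-10). WRKY26 (AT5G07100) had 3.22, 3.26 and 4.56 CPM in root, against 71.2, 77.1 and 71.6 CPM in palisade cells (-4.34 ± 0.22; adjusted p = 7.09e-10). Again the organs did not overlap for any of these. WRKY70 had 2.30, 4.15 and 1.98 CPM in root, against 31.3, 60.1 and 76.4 CPM in reference cells (-4.38 ± 0.36; adjusted p = 1.72e-07).

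**Figure D5:**
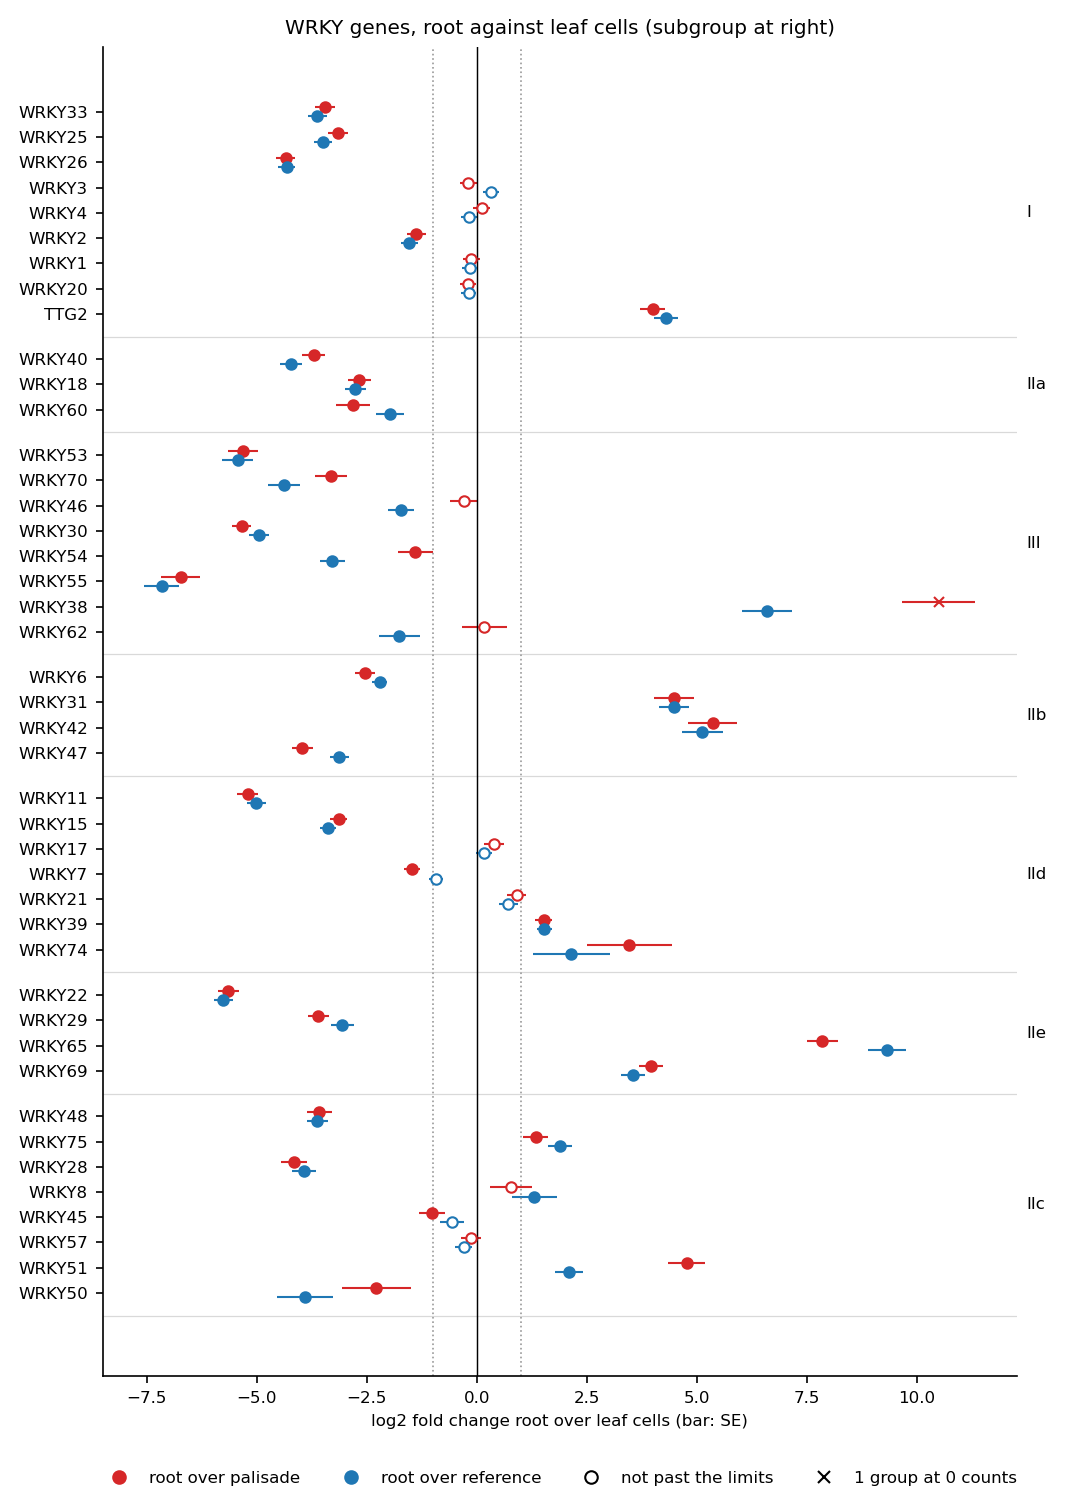
Log2 fold change of root protoplasts against palisade cells (red, above) and against reference cells (blue), all without inhibitors, for each WRKY member, with SE bars. Filled points passed an FDR under 0.05 and a fold above 2 and crosses mark a condition with 0 counts; WRKY65, WRKY38, WRKY42, WRKY31 and TTG2 lie far to the right and WRKY55, WRKY22, WRKY53, WRKY11 and WRKY30 far to the left.

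The leaf side of this contrast is made of cells prepared without inhibitors, in which many members were far above their level with inhibitors; root protoplasts with inhibitors were not analysed here, so organ and the response to preparation cannot be told apart. Of partners and upstream genes, 11 of 14 were lower in root in both comparisons, with FLS2 at -9.53 against palisade and -9.24 against reference cells. Of described targets, 3 were higher and 8 lower of 12 against palisade, and 3 higher and 7 lower of 11 against reference cells. CYP71A13 had no count in root and was at least 29.9-fold lower than in palisade and at least 41.8-fold lower than in reference cells. Of 4 root markers 3 were higher in root, and EXP7, which marks root hairs, had no count in palisade cells without inhibitors.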

How the data were processed

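Per the study's methods and the labels, stranded mRNA libraries were sequenced as single-end 50-bp reads, converted with CASAVA 1.8.2, aligned strand-specifically to TAIR10 with TopHat 2.0.9 and counted per gene with HTSeq 0.6.1 (intersection-strict). The authors deposited the resulting whole-number counts, 1 file per library, without normalization. Rows naming no gene, 6.946% to 12.53% of a library's reads, were left out, as were 133 chloroplast and 146 mitochondrial genes, which leaves 33323. HTSeq drops reads that align to several places (4.333% to 9.75%), which lowers near-identical genes.

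The members and gene lists were chosen with earlier results of these data known. Genes that reached 2 counts in 3 or more libraries of a comparison were fitted with edgeR 4.0.16 in R 4.3.3 (TMM scaling, quasi-likelihood test, Benjamini-Hochberg adjustment over all genes fitted), and the protoplast pool was a block in the comparisons whose palisade and reference libraries shared 1. A gene was called at an FDR under 0.05 and a fold above 2, and in a test of a difference of responses at an FDR under 0.05 alone. The SE was obtained from the F statistic, as the size of the log2 fold change over the root of F. The printed CPM come from 1 TMM scaling over all libraries, so ratios of means differ slightly from fitted fold changes. The pool letters in the labels pair the libraries, and deviations of paired libraries correlated in every pair (mean r 0.31 with inhibitors at low light, 0.312 at high light, 0.552 without inhibitors, 0.556 in JR11-2). The fits were tested on simulated data.

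Values in every library are given for the called members with the largest change, up to 6 per direction and comparison, and for members passing a test of a difference of responses. Genes of the lists of partners and upstream signalling (14 genes) and of described targets (13 genes) are named where called, up to 4 per list. Upstream windows, exon lengths and positions come from the RefSeq annotation of TAIR10.1 and nothing else does. Bounds against a group without counts use 3 counts per library. Alternatives were DESeq2 1.42.0, RLE and upper-quartile scaling, no filter, a filter of 10 counts in every library, fits with or without the block, and leaving out each replicate. Python 3.11.15, numpy 2.4.6, pandas 2.3.3 and matplotlib 3.10.9 were used.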

Additional observations from a re-analysis of the deposited data

Results flagged for a closer look

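The responses below differed between groups by a test of the difference itself, an interaction term fitted in edgeR (quasi-likelihood), adjusted over all genes by Benjamini-Hochberg. They are values on the log2 scale, with no explanation weighed, and the comparisons share libraries.

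The light response (high against low, with inhibitors) was smaller or more negative in palisade cells than in reference cells for 12 members: WRKY46 (-0.88), WRKY33 (-0.81), WRKY17 (-0.80), WRKY30 (-0.79), WRKY28 (-0.69), WRKY53 (-0.67), WRKY40 (-0.66), WRKY47 (-0.64), WRKY11 (-0.59), WRKY18 (-0.56), WRKY70 (-0.55) and WRKY48 (-0.53).

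The change with inhibitors was less negative in palisade than in reference cells for 17 members: WRKY46 (1.41), WRKY28 (1.25), WRKY22 (1.14), WRKY40 (0.98), WRKY48 (0.91), WRKY54 (0.89), WRKY17 (0.85), WRKY18 (0.84), WRKY6 (0.76), WRKY53 (0.73), WRKY47 (0.73), WRKY11 (0.71), WRKY33 (0.65), WRKY26 (0.59), WRKY15 (0.55), WRKY70 (0.49) and WRKY25 (0.45).

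The population difference without inhibitors was higher in the IQD22 line than in JR11-2 for WRKY60 (1.51), WRKY29 (1.09), WRKY75 (0.97), WRKY45 (0.96), WRKY47 (0.50) and WRKY7 (0.44), and lower for WRKY51 (-1.87), WRKY54 (-1.51), WRKY46 (-1.0), WRKY70 (-0.78), WRKY55 (-0.63), WRKY40 (-0.32) and WRKY25 (-0.30). WRKY47 is higher in palisade or GFP-negative cells of both lines, and WRKY60, WRKY29, WRKY75 and WRKY45 have opposite signs in them.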

How the results depend on the processing

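Of 144 counts of called members under another setting, 131 stayed within 1.5 times the reported count. The exceptions follow, and their cause was not tested except where fewer genes or libraries entered. With at least 10 counts in every library, 4 members were called for light in palisade cells (7 reported), 3 between the populations without inhibitors (5 reported) and 3 at high light (5 reported), since scarce members left the test. DESeq2 called 7 members for the difference in light response (12 reported). Without the replicate block that pairs pools, 3 members were called between the populations without inhibitors, 2 for the difference in inhibitor response, 1 for the difference between lines and 0 for the difference in light response, where 9 had an unadjusted p under 0.05. Leaving out each replicate in turn gave 8 to 16 members for light in reference cells (8 without the high-light library of replicate 1), 3 to 6 between the populations at high light (3 without replicate 3), 9 to 16 for the difference in inhibitor response (9 without the replicate 3 pool without inhibitors) and 7 to 15 for the difference between lines (7 without the IQD22 pool of replicate 3). With inhibitors or light, same-numbered libraries came from different pools and did not deviate together in every pair; a replicate block there gave 22 and 25 members for inhibitors and 7 and 12 for light, in palisade and in reference cells, and in no comparison did such a block reverse a call. Over 190 called member values and 2182 alternatives, none changed sign and 155 lost the call, 81 of them on leaving out a replicate and 42 without the block. Settings in which a scarce member left the test are not among the 2182 and are not counted as lost calls. At 3 libraries per condition and these depths, members under 1 CPM rest on few counts.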
